A study of Mus musculus with 4 samples.

Results

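DEAD and DEAH box proteins are RNA helicases, enzymes that use ATP to unwind or remodel RNA and RNA-protein complexes. Their family names spell, in amino acid letters, the motif that binds and splits the nucleotide. Most members serve steps that every cell needs, such as ribosome assembly, splicing, mRNA export, translation and mRNA decay. A few, led by RIG-I, bind viral RNA in the cytosol and start interferon production, and their genes are themselves induced by interferon. The genes described here are all those whose symbol in the array annotation begins with Ddx or Dhx and a digit. There are 51 of them among 18193 named genes, with 113 probe sets. A probe set is a group of oligonucleotides on the array that read 1 transcript, and each gene was read from its probe set with the highest mean over the arrays.

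The measurements come from neutrophils, the short-lived phagocytes that first reach sites of bacterial infection. A magnetic bead kit was used to enrich them from marrow of C57BL/6 mice aged 8 weeks, either wild type (miR-125a+/+) or lacking the microRNA miR-125a (miR-125a-/-, called knockout below). Cells were kept in medium with serum and taken without stimulation or after 3 h with lipopolysaccharide (LPS), the bacterial cell wall component sensed by Toll-like receptor 4. The labels describe the unstimulated cells both by a 0 h time point and by the absence of LPS. Whether they spent the same time in culture is not settled, so LPS and time in culture cannot be told apart. Each of the 4 groups is 1 Affymetrix expression array, hybridised with a pool of RNA from 3 independent experiments. No difference below therefore has a replicate check or a test, and precision is limited by having so few arrays. miR-125a itself was not analysed here.

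Values are log2 MAS5 signals. Values under a floor of 6.80 (signal 111, the 60th percentile of all values) were set to it, and a gene counted as measured in a comparison when 1 or more of its arrays lay above the floor. A gene was called higher or lower from a 2-fold difference. Of 12 marker genes of neutrophils, 10 were on the arrays and all 10 lay above the floor. Passing the floor does not show purity, because 9 of 11 monocyte and macrophage genes and all 7 cycling genes also did. In unstimulated wild-type cells the monocyte genes F13a1, Csf1r and Ccr2 had signals of 13.97, 11.80 and 11.19. Markers of lymphocytes gave a mixed picture. Of 7 B and plasma cell genes, Cd79a, Ms4a1, Pax5 and Ebf1 were under the floor on every array and Vpreb1 exceeded it on 1 (6.91). Cd79b had signals from 7.80 to 8.18, and Jchain, the joining chain of secreted antibodies, had 14.35, 14.67, 13.98 and 14.42 in unstimulated wild-type, unstimulated knockout, LPS wild-type and LPS knockout cells. Of 6 T and NK cell genes, Cd3e, Cd3g, Cd8a, Ncr1 and Gzma were under the floor and Cd3d had signals from 9.35 to 9.92. The part of such cells in the helicase values was not tested.

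Of the 51 helicase genes, 47 exceeded the floor on at least 1 array and 46 on all 4. Those left out were Dhx37, a ribosome assembly helicase whose highest signal of 6.62 was just outside the floor, Ddx25 (4.65) and Ddx4 (4.13), both helicases of germ cells, and Ddx43 (3.17). Just inside were Dhx33 and Dhx32, each with a highest signal of 7.33. The floor is a rule of the selection, and these values are given only to show where it fell.

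Promoter sequences are shown first, because the interferon-inducible helicases are the ones for which a regulatory sequence is best known. The interferon-stimulated response element (ISRE) is bound by interferon regulatory factors and by the STAT complex that interferon activates. Its core, TTTC and TTTC with any 2 bases between them, on either strand, was searched in the 250 bases before and 50 bases after each RefSeq transcription start (GRCm38.p6), with bases counted from the start. Of the 51 genes 45 had an entry, in 56 windows. The core was found in 3.63% of the 14452 array genes with an entry, 3.86% of those above the floor and 3.44% of all windows. Of the 45 helicase genes, 3 held it (6.67%). The 3 were Ddx58, which encodes RIG-I, Ddx60, an interferon-inducible helicase reported to assist RIG-I, and Ddx49, a ribosome assembly helicase. The stretches below show them 5′ to 3′ on the strand of the gene, with the core in capitals.
Ddx58 (chr4:40239811-40239890, minus strand, bases -65 to 15): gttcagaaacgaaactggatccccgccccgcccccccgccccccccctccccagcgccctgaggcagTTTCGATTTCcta
Ddx60 (chr8:61928007-61928086, plus strand, bases -80 to -1): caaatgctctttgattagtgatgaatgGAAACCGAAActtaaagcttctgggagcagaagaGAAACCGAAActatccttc
Ddx49 (chr8:70302642-70302721, minus strand, bases -250 to -171): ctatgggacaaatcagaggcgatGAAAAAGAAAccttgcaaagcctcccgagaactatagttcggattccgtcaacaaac

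In Ddx60 the same 10 bases, GAAACCGAAA, occur at -53 to -44 and again at -19 to -10. In Ddx58 the match TTTCGATTTC lies at bases 3 to 12, just after the start. The match in Ddx49 differs in its middle bases and lies far from the start, at -227 to -218 in the window shown. A match is a description of letters and does not show that a factor binds.

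A second element was more common among these genes. The ETS core CCGGAAG is read by factors of the ETS family such as the broadly expressed GABPA. It was present in 19 of the 45 genes (42.2%), against 22.0% of the 8100 array genes with an entry that were above the floor and 8.86% of all windows. It is shown for Dhx9, a helicase of transcription and RNA processing, and Ddx10, a ribosome assembly helicase, which are described below. Ddx21, the ribosome assembly helicase with the largest LPS difference of its group, held no exact match to either core. Its last 80 bases before the start are shown for comparison. They do hold CGGAAG, the ETS core without its first base, on each strand.
Dhx9 (chr1:153487706-153487785, minus strand, bases -125 to -46): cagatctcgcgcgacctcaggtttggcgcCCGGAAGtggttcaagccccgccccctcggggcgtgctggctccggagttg
Ddx10 (chr9:53248243-53248322, minus strand, bases -210 to -131): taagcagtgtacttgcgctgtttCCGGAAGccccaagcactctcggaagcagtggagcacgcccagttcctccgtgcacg
Ddx21 (chr10:62602299-62602378, minus strand, bases -80 to -1): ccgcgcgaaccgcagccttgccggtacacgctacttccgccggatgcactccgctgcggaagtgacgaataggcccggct

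The median LPS difference of the 18 measured helicase genes with the ETS core was -0.13 in wild-type and -0.25 in knockout cells, and that of the 23 with a window but no core was -0.28 and -0.33. Of 8 elements searched, the others are given against their shares of array genes with an entry that were above the floor. The E-box CACGTG was in 7 helicase genes (15.6% against 12.2%), CCAAT in 23 (51.1% against 42.9%) and TATAAA in 6 (13.3% against 8.59%). The NF-kB consensus was in 3 (6.67% against 12.1%), the palindromic NRF1 consensus in 2 (4.44% against 2.63%) and the YY1 site AAGATGGC in 1 (2.22% against 5.81%). Ddx58, Ddx60 and Ddx21 held no match to the NF-kB consensus in these windows.

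The 3 interferon-inducible helicases did not move as a group after LPS. Ddx58 encodes RIG-I, which binds short double-stranded RNA with a 5′ triphosphate and signals through the adaptor MAVS. Its log2 signal was 10.01 in both unstimulated groups, 11.15 in LPS-treated wild-type cells and 11.06 in LPS-treated knockout cells. Both LPS arrays thus lay above both unstimulated arrays, by 2.21-fold in wild-type and 2.07-fold in knockout cells. Both of its further probe sets had differences in the same direction, 1.03 and 1.93 in one and bounds of at least 1.16 and 1.53 in the other, in wild-type and knockout cells. Ddx58 was the only helicase called higher in wild-type cells, where 7.29% of measured genes were called higher.

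Dhx58 encodes LGP2, a relative of RIG-I that lacks signalling domains and modulates the other receptors. Its signal was 8.83 in unstimulated wild-type, 8.04 in unstimulated knockout, 9.37 in LPS-treated wild-type and 9.34 in LPS-treated knockout cells. The LPS arrays were again the higher ones, and the lowest value was that of unstimulated knockout cells. The LPS difference was 0.54 in wild-type cells, short of 2-fold and -0.02 on the poly-A scale described below, and 1.30 in knockout cells (2.46-fold), and only the second was called. In knockout cells 6.62% of measured genes were called higher. The other probe sets of Dhx58 were under the floor on every array, so the gene rests on 1 probe set, and no promoter entry was found for it.

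Ddx60 went the other way. Its signal was 8.70 in unstimulated wild-type, 8.43 in unstimulated knockout, 6.89 in LPS-treated wild-type and 7.65 in LPS-treated knockout cells. The LPS arrays were the low ones, with the wild-type LPS value close to the floor. The log2 difference was -1.80 in wild-type cells (3.48-fold lower, called) and -0.77 in knockout cells (not called). A second probe set was near or under the floor, with 6.86 in unstimulated wild-type cells and between 6.10 and 6.55 on the other arrays, and gave a bound of -0.06. The promoter stretches above hold 2 ISRE cores for Ddx60, lower after LPS, and 1 for Ddx58, higher after LPS.

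**Figure D1:**
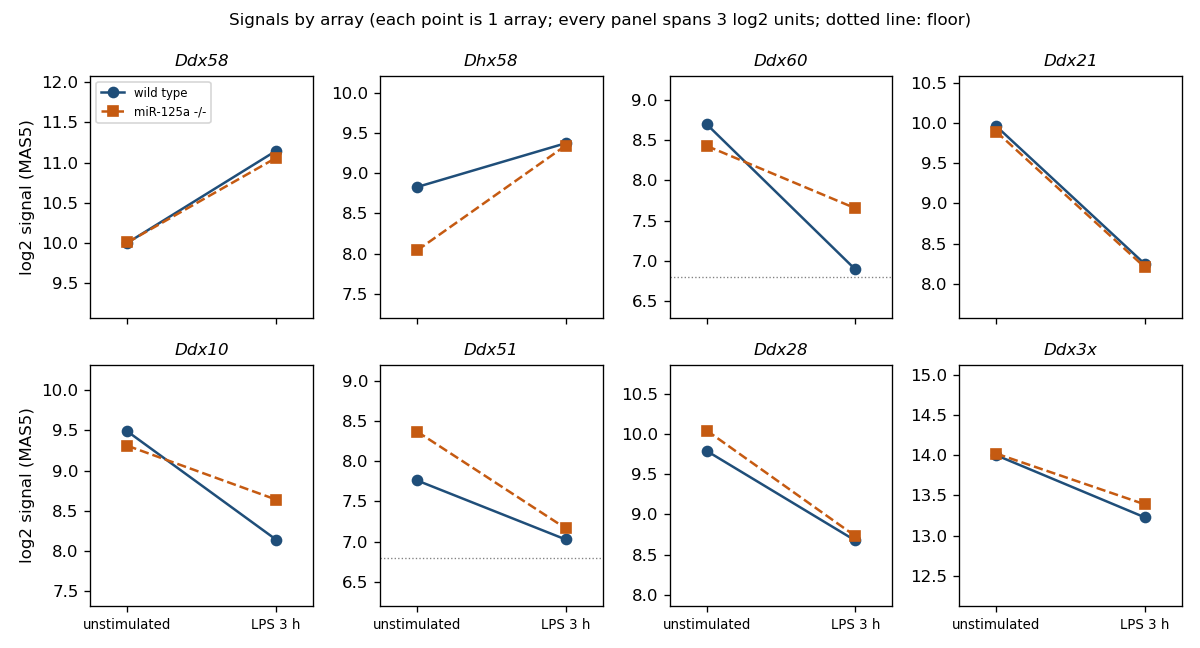
Log2 MAS5 signal (vertical axis, 3 log2 units in every panel) of 8 helicase genes in unstimulated cells and after 3 h of LPS, with circles for wild-type and squares for knockout arrays and 1 array per point. Ddx58 and Dhx58 are higher on both LPS arrays, Ddx60 and the other 5 genes lower, and the lines of the 2 genotypes lie close together except for Dhx58, Ddx60, Ddx10 and Ddx51.

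Genes of the RIG-I-like receptor pathway without a Ddx or Dhx name were counted from a list of 20, of which 18 were on the arrays. In wild-type cells 5 of 15 measured genes were higher and 1 was lower, with a median log2 difference of 0.65. Over all 9507 measured genes there 7.29% were higher and 9.69% lower, with a median of -0.03. In knockout cells 6 of 16 were higher and 0 lower, with a median of 0.60. Over all 9578 measured genes there 6.62% were higher and 7.99% lower, with a median of -0.05. Ifih1 encodes MDA5, the third receptor of the family, which binds long double-stranded RNA. Its signals of 10.00 and 9.82 in unstimulated wild-type and knockout cells and of 11.29 and 11.28 after LPS gave differences of 1.29 and 1.47. The kinase Ikbke, which phosphorylates interferon regulatory factors, had 4.48 and 4.40. Rnf135, a ubiquitin ligase that acts on RIG-I, had 1.14 in both genotypes, and the interferon regulatory factor Irf7 had 1.10 and 1.15. Nlrc5, reported as a regulator of this pathway and of MHC class I genes, was lower in wild-type cells (-1.15) but had 0.16 in knockout cells. Mavs, the adaptor, was near the floor, with signals from 6.12 to 6.91.

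Several markers of other cell types differed beside these values. Of 12 monocyte and macrophage markers 9 were measured in wild-type cells, with 4 higher and 3 lower, and 8 in knockout cells, also with 4 higher and 3 lower. The log2 of their summed signal was 14.67 and 14.72 in unstimulated wild-type and knockout cells and 15.55 and 15.46 after LPS, while C1qa and C1qb, which define resident macrophages, were under the floor on every array. Of the monocyte and macrophage markers, Adgre1 (4.94), Vcam1 (3.13), Csf1r (2.64) and Cx3cr1 (a bound of 1.90) were higher in wild-type cells. Ccr2 (-3.88), F13a1 (-1.93) and Ly86 (-1.69) were lower there. Over all measured genes 7.29% were higher and 9.69% lower in wild-type cells, and 6.62% and 7.99% in knockout cells. Dendritic cell markers had 2 higher and 2 lower of 6 in wild-type cells and 2 higher of 6 in knockout cells. Their log2 summed signal was 11.12, 11.19, 11.31 and 11.43 in unstimulated wild-type, unstimulated knockout, LPS wild-type and LPS knockout cells, with Siglech, Flt3, Zbtb46 and Xcr1 under the floor. In pooled RNA, fewer cells of a type and less RNA per cell cannot be told apart, and the part of these cells in the helicase values was not tested.

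Ribosome assembly helicases act in the nucleolus, where they free or place small nucleolar RNAs and rearrange the pre-ribosomal RNA. Of 16 listed, 15 were measured. None was higher in either genotype, and 2 were lower in each: Ddx21 and Ddx10 in wild-type cells and Ddx21 and Ddx51 in knockout cells. Their median log2 difference was -0.28 in wild-type and -0.24 in knockout cells. Over all measured genes 9.69% and 7.99% were lower. A difference below 0 was found for 10 of 15 and 12 of 15, against 52.2% and 53.6% of all genes.

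Ddx21 helps transcribe and process ribosomal RNA. Its signals were 9.96 and 9.89 in unstimulated wild-type and knockout cells and 8.25 and 8.21 after LPS. The 2 genotypes nearly coincided on both occasions, and LPS-treated cells were 3.27-fold and 3.21-fold lower. A further probe set had smaller differences of -0.55 and -0.83. Ddx50, the close relative of Ddx21, had signals of 10.88 and 11.14 unstimulated and 10.24 and 10.66 after LPS, and differences of -0.64 and -0.47 that were not called. Its further probe sets had -0.53 and -0.60 in one and bounds of -1.57 and -1.04 in the other, which ended under the floor.

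Ddx10, a helicase of small subunit assembly, had signals of 9.49 and 9.31 unstimulated and 8.14 and 8.64 after LPS. Both LPS values were under both unstimulated ones, and the difference was -1.34 in wild-type cells (2.53-fold lower) and -0.67 in knockout cells. A further probe set of Ddx10 had -0.68 and -0.51, both short of 2-fold. Ddx51, which acts on the large subunit, had 7.76 and 8.37 unstimulated and 7.03 and 7.17 after LPS. Its difference was -0.73 in wild-type and -1.20 in knockout cells (2.30-fold lower), and the highest of the 4 values was that of unstimulated knockout cells. Ddx18, also of the large subunit, had -0.56 and -0.80. At the other end stood Ddx24, with 0.65 in wild-type and 0.16 in knockout cells, and Ddx31, with 0.50 and 0.17. A further probe set of Ddx31 went the other way, with -0.39 in wild-type cells and a bound of -0.61 in knockout cells. Ddx24 is reported both in large subunit assembly and as a negative regulator of RIG-I-like receptor signalling.

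Ribosome assembly factors without a Ddx or Dhx name were counted for comparison. In wild-type cells 8 of 19 were lower and 0 higher (median -0.77), and in knockout cells 8 of 20 were lower and 0 higher (median -0.82). Over all genes 9.69% and 7.99% were lower, with medians of -0.03 and -0.05. The largest differences in wild-type cells were those of Nop58 (-1.98 and -1.63), a core protein of box C/D small nucleolar particles, Dkc1 (-1.90 and -2.13), the pseudouridine synthase of box H/ACA particles, and Nolc1 (-1.89 and -1.92), a nucleolar chaperone. The helicases of this pathway had smaller differences as a list than these partners. The difference between the lists was not tested.

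Cycling and erythroid genes, which immature marrow cells express, were lower beside them in part. Over all measured genes 9.69% were lower in wild-type and 7.99% in knockout cells. Of 7 cycling genes 1 was lower in wild-type and 0 in knockout cells, and their log2 summed signal was 15.77 and 15.82 unstimulated and 15.59 and 15.58 after LPS. Erythroid markers had 1 of 2 measured genes lower in wild-type and 2 of 3 in knockout cells, and their log2 summed signal was 9.61 and 10.45 unstimulated and 7.81 and 8.36 after LPS, with Hba-a1, Alas2 and Epb42 under the floor. Their part in the values of ribosome assembly helicases was not tested.

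Spliceosome helicases drive the rearrangements by which the splicing machine forms, cuts and releases the pre-mRNA. All 10 listed were measured and none was called in either genotype. Of all measured genes, 7.29% were higher and 9.69% lower in wild-type cells, and 6.62% and 7.99% in knockout cells. The median differences of the 10 were -0.05 in wild-type and -0.15 in knockout cells. Their values ranged from -0.80 to 0.32 and from -0.56 to 0.28. The lowest value over both genotypes was that of Ddx46, which acts as the branch site is recognised, with signals of 9.62 and 9.58 unstimulated and 8.82 and 9.04 after LPS (differences -0.80 and -0.54). Both LPS values lay under both unstimulated ones. Its 4 further probe sets had differences from -1.23 to -0.84 in wild-type and from -1.20 to -0.49 in knockout cells, 1 of them as a bound, so all 5 pointed the same way. Dhx15, which takes spent spliceosomes apart, had 13.47 and 13.37 unstimulated and 13.09 and 13.20 after LPS, and Dhx16, which acts before the first cutting step, had differences of -0.15 and -0.56. Ddx41, reported both in the spliceosome and as a sensor of cytosolic DNA, had the highest mean difference of the group, 0.02 and 0.17, with signals of 8.23, 8.03, 8.26 and 8.19 in unstimulated wild-type, unstimulated knockout, LPS wild-type and LPS knockout cells. Of 17 spliceosome factors without a Ddx or Dhx name, 0 were called in either genotype, against the same shares of all genes (medians -0.01 and -0.08). The largest differences there were those of Sf3b3 (-0.85 and -0.84), a subunit of the branch site complex SF3B, and Prpf6 (0.65 and 0.75), a tri-snRNP protein. Prpf31 had -0.47 and -0.28, and Sf3a1 had 0.01 and -0.60.

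**Figure D2:**
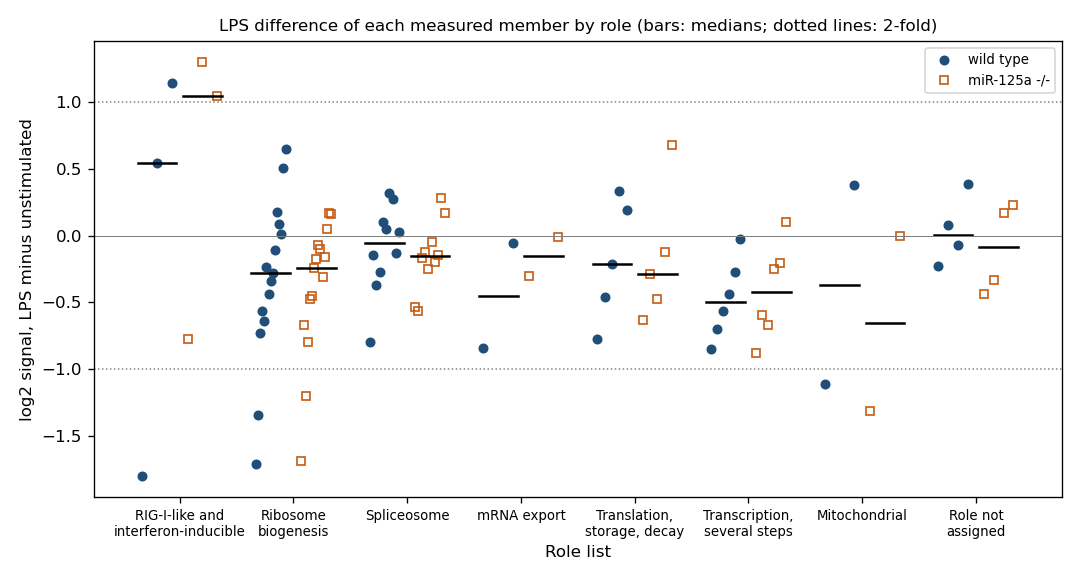
Log2 difference between LPS and unstimulated cells (vertical axis) of each of the 47 measured helicase genes, by role, with filled circles for wild-type and open squares for knockout cells, black bars for medians and dotted lines at 2-fold. The interferon-inducible helicases lie on both sides of 0, 2 of 15 ribosome assembly helicases are beyond the lower line in each genotype, and no spliceosome helicase is.

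Set side by side, the medians of the interferon-inducible, ribosome assembly and spliceosome helicases were 0.54, -0.28 and -0.05 in wild-type cells and 1.05, -0.24 and -0.15 in knockout cells. The first rests on 3 genes with values from -1.80 to 1.14 in wild-type and from -0.77 to 1.30 in knockout cells. With so few members it describes the middle gene, Dhx58 in one genotype and Ddx58 in the other. The order of the 3 medians depended in part on scaling for its signs: with arrays scaled on poly-A spike-in controls the interferon-inducible median in wild-type cells was -0.02, and the spliceosome median there was 0.12 under quantile normalization and 0.19 under median scaling.

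Helicases of constitutive steps that have also been reported to assist nucleic acid sensing were counted apart. This list of 8, which overlaps the other groups, holds Ddx1, Ddx3x, Ddx21, Ddx41, Dhx9, Dhx15, Dhx33 and Dhx36. In each genotype 0 were higher and 1, Ddx21, was lower, 7 of 8 had a difference below 0, and the medians were -0.51 and -0.52. Over all genes 7.29% and 6.62% were higher and 52.2% and 53.6% were below 0, so a count of 0 higher among 8 is near the background. Dhx33, a ribosome assembly helicase reported as an RNA sensor of the NLRP3 inflammasome, had signals of 7.03 and 7.33 unstimulated and 6.47 and 6.88 after LPS, the third of which is under the floor. Its wild-type difference is therefore a bound of -0.23, and its knockout difference was -0.45.

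Among helicases of translation, storage and decay none of 5 was called, with medians of -0.21 and -0.28. The shares of all genes were 7.29% higher and 9.69% lower in wild-type cells, and 6.62% and 7.99% in knockout cells. Ddx3x, which helps ribosomes start on structured mRNAs, had 14.00 and 14.02 unstimulated and 13.23 and 13.39 after LPS. The 2 genotypes lay close together, and the differences were -0.77 and -0.63. Dhx36, which resolves G-quadruplexes in RNA, had -0.46 and -0.28. Ddx6, the decay and P-body helicase that represses capped mRNAs, stood on the other side with 12.69 and 12.57 unstimulated and 12.89 and 13.25 after LPS, and differences of 0.19 and 0.68. Its highest value was that of LPS-treated knockout cells.

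All 6 helicases of transcription and of several steps had a wild-type difference below 0, where 52.2% of measured genes did. In knockout cells 5 of 6 did, against 53.6%. The medians of the 6 were -0.50 and -0.42, and none was called. Over all measured genes 7.29% were higher and 9.69% lower in wild-type cells, and 6.62% and 7.99% in knockout cells. Ddx20, the Gemin3 subunit of the SMN complex that assembles splicing particles, had 9.89 and 10.13 unstimulated and 9.04 and 9.25 after LPS, differences of -0.85 and -0.88. Dhx9, RNA helicase A, had 12.03 and 12.14 unstimulated and 11.33 and 11.55 after LPS, differences of -0.70 and -0.59. The paralogs Ddx5 and Ddx17, coregulators of transcription and splicing, had -0.44 and -0.25, and -0.27 and -0.21. Ddx5 gave signals of 14.60, 14.51, 14.16 and 14.25 in unstimulated wild-type, unstimulated knockout, LPS wild-type and LPS knockout cells. Ddx11, a DNA helicase of sister chromatid cohesion, had -0.03 and 0.11.

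Of the mitochondrial helicases, Ddx28, which takes part in assembly of the mitochondrial ribosome, was lower in both genotypes. Its signals were 9.79 and 10.04 unstimulated and 8.68 and 8.73 after LPS, 2.16-fold and 2.48-fold lower. The LPS values lay more than 2-fold under both unstimulated ones. Dhx30, which also acts on mitochondrial ribosomes, had 0.38 in wild-type cells and a difference near 0 in knockout cells. Both measured export helicases fell short of 2-fold, Ddx19b, which releases mRNA at the nuclear pore, with -0.84 and -0.30, and Ddx39a, an export factor, with -0.05 and -0.01. The 4 members without an assigned role, Dhx40, Dhx57, Dhx32 and Ddx59, ranged from -0.23 to 0.39 and from -0.43 to 0.23.

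**Figure D3:**
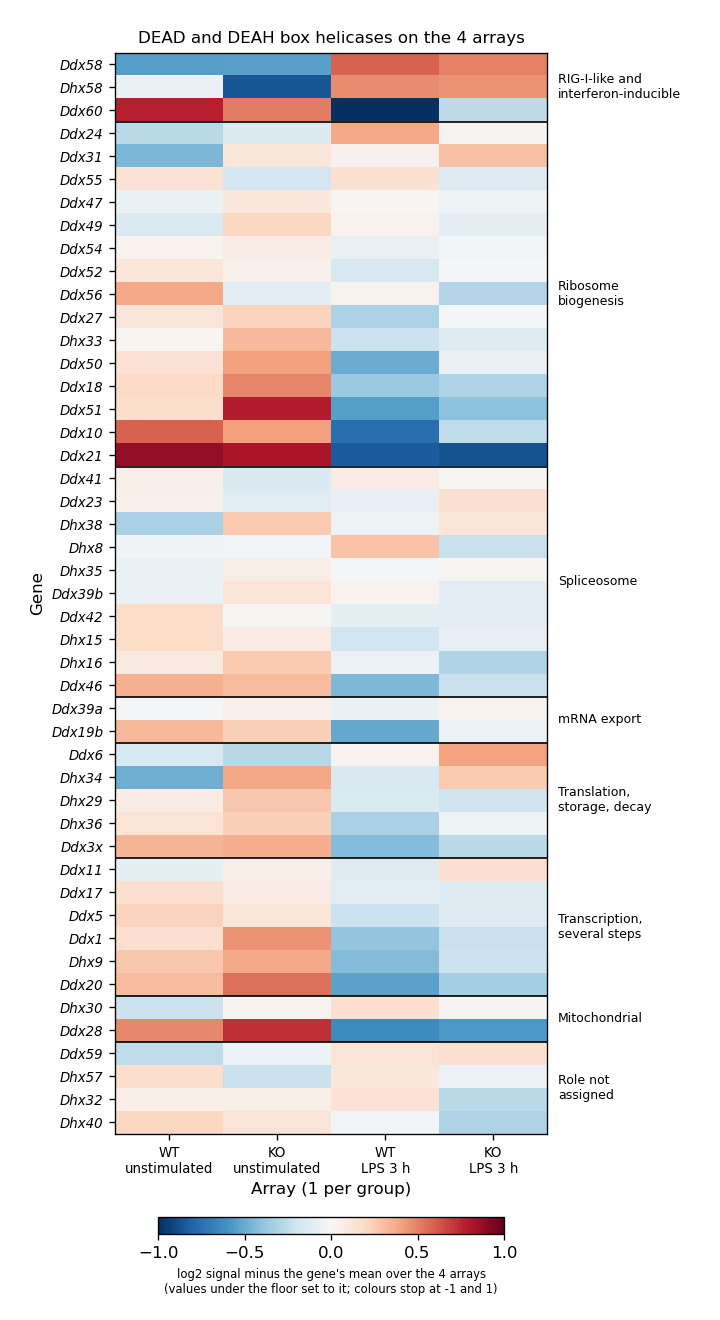
Log2 signal of the 47 measured helicase genes (rows, by role) on the 4 arrays (columns), with the mean of each gene over the 4 arrays subtracted; red is above and blue below that mean. Ddx58 and Dhx58 are red on both LPS arrays, and Ddx60, Ddx21, Ddx10, Ddx51, Ddx28 and Ddx20 are blue on both.

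Over all 47 genes, 1 was higher and 4 were lower in wild-type cells, where 9.69% of measured genes were called lower, and 2 were higher and 3 lower in knockout cells, where 7.99% were. These shares are near or under those of all genes. On the scale of poly-A spike-in controls the counts were 0 higher and 16 lower in wild-type cells (33.3% lower, against 24.9% of genes) and 0 higher and 15 lower in knockout cells (31.9%, against 26.3%), so on that scale the lower shares were above those of all genes. At a threshold of 1.5-fold, 11 helicases were lower in wild-type cells, against 21% of genes, and 10 in knockout cells, against 19.2%. The counts on the high side were 2, against 15.8%, and 3, against 13.8%. A difference below 0 was found for 30 of 47 in wild-type cells (63.8%, against 52.2% of genes) and 36 of 47 in knockout cells (76.6%, against 53.6%), with median differences of -0.21 in both. The count in wild-type cells was 26 under quantile normalization, 22 under median scaling, where the median was 0.03, and 46 of 48 on the poly-A scale. Those 3 scalings moved the median of all genes by 0.10, 0.23 and -0.51 in wild-type cells and by 0.06, 0.10 and -0.56 in knockout cells, and relative to it the helicase median stayed between -0.20 and -0.14 in both genotypes under these scalings and as deposited.

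By name, 22 of 32 Ddx genes and 8 of 15 Dhx genes were below 0 in wild-type cells, against 52.2% of all genes, and 23 of 32 and 13 of 15 in knockout cells, against 53.6%. Medians were -0.28 and -0.07, and -0.22 and -0.20. All 4 genes called lower in wild-type cells, Ddx60, Ddx21, Ddx10 and Ddx28, and all 3 in knockout cells, Ddx21, Ddx28 and Ddx51, were Ddx genes.

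The 2 LPS responses, which share no array, can be set against each other gene by gene. Of the 47 genes, 27 had a difference below 0 in both genotypes (57.4%, against 44.3% of the 9220 genes measured in both), 8 were above 0 in both and 12 had opposite signs (25.5%, against 17.4% of genes). Ddx58 was called higher and Ddx21 and Ddx28 were called lower in both. Past 1.5-fold, 8 were lower in both (Ddx21, Ddx60, Ddx10, Ddx28, Ddx51, Ddx20, Ddx3x and Dhx9), against 14.9% of genes, and 30 stayed within 1.5-fold in both. As a description across these 47 genes, which are not replicates and share the same 4 arrays, Pearson's r between the responses was 0.80 and Spearman's rho 0.79. The median absolute gap between the responses was 0.21, against 0.22 over all genes.

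**Figure D4:**
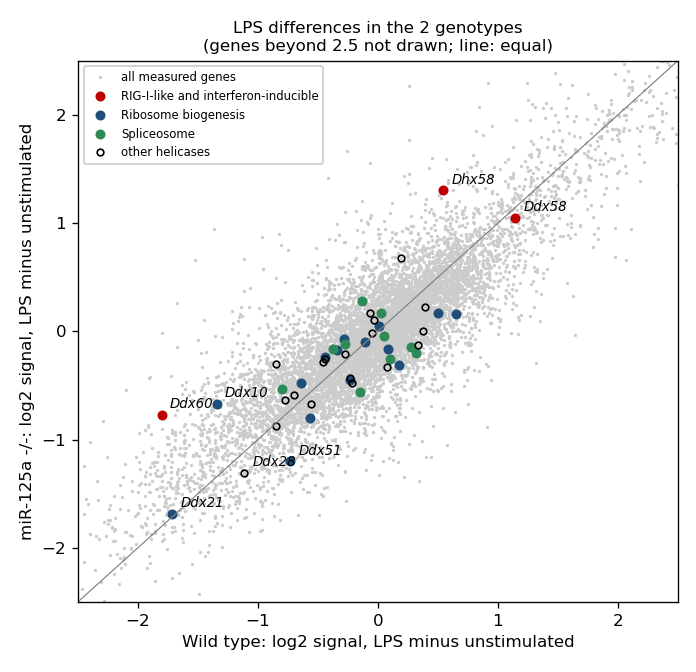
Log2 LPS difference in wild-type cells (horizontal axis) against that in knockout cells (vertical axis), with all measured genes in grey and the 47 helicases in colour or as open circles; the diagonal marks equal differences. Most helicases lie near the diagonal with Ddx21 at the low end (-1.71 and -1.68) and Ddx58 at the high end (1.14 and 1.05), while Ddx60 and Dhx58 lie above it.

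With the floor applied, none of the 47 genes differed 2-fold between the knockout and wild-type arrays, unstimulated or after LPS. Over all measured genes 0.351% were higher and 0.66% lower in unstimulated knockout cells, and 0.615% and 0.626% after LPS, so calls were rare everywhere. The largest differences in unstimulated cells were those of Dhx34, a helicase of nonsense-mediated decay, at 0.87, Dhx58 at -0.79, Ddx51 at 0.61 and Dhx38, which acts before the second splicing step, at 0.59. Dhx34 had signals of 7.02 and 7.89 in unstimulated wild-type and knockout cells and 7.35 and 7.76 after LPS, and was higher in knockout cells on both occasions. Past 1.5-fold there were 3 higher and 1 lower, against 2.83% and 3% of genes. After LPS only Ddx60 passed 1.5-fold, at 0.76, against 4.42% of genes, and none was lower, against 3.23%. Values were below 0 for 19 of 47 helicases in unstimulated cells (49.1% of genes) and for 19 of 47 after LPS (51% of genes), with medians of 0.06 on both occasions. The second median was -0.09 under median scaling.

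The knockout response minus the wild-type response reached 2-fold for 1 helicase, Ddx60, with 1.03, against 1.27% of genes, and for none in the other direction, against 0.9%. Past 1.5-fold, Dhx58 (0.76) and Ddx10 (0.67) joined it on the high side, against 6.56% of genes, and none on the low side, against 5.33%. In the further probe set of Ddx10 the 2 LPS responses lay closer together, at -0.68 in wild-type and -0.51 in knockout cells. Values below 0 were found for 22 of 47, against 51.9% of genes. These comparisons share their arrays with those above and add no separate evidence. The value of Ddx60 did not reach 2-fold under quantile normalization (0.89), median scaling (0.89), the poly-A scale (0.75) or in the mean over probe sets (0.82).

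Further probe sets give a second reading of some genes. Of the 47 genes 25 had at least 1 further probe set above the floor, 43 in all, and the median absolute gap to the chosen probe set was 0.25 in wild-type and 0.26 in knockout cells, about the size of the gap between the 2 responses. In 4 genes, Ddx6, Ddx21, Ddx60 and Ddx5, the gap was over log2 1. The widest was in Ddx6, where the probe sets marked as unique had differences from -0.27 to 0.19 in wild-type and from 0.28 to 0.68 in knockout cells. A probe set marked as open to cross-hybridisation was under the floor in unstimulated cells (5.32 and 5.97) and stood at 9.99 and 9.88 after LPS, at least 9.13-fold and 8.49-fold higher. One such probe set of Ddx5 had 0.69 in wild-type cells, where its others, some of them also marked so, ranged from -0.95 to -0.12. For Ddx3x, Dhx9, Ddx31, Dhx38 and Dhx57 the brightest probe set was of the shared kind. For Ddx5, Ddx17, Ddx39a and Ddx54 it was marked as open to cross-hybridisation. When both kinds were left out, Ddx3x and Dhx9 were lower in wild-type cells (-1.06 and -1.14) and Dhx9 also in knockout cells (-1.02). That made 6 helicases lower in wild-type cells (13.3%, against 9.82% of genes) and 4 in knockout cells (8.89%, against 8.02%). Both lower shares were then above those of all genes.

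**Figure D5:**
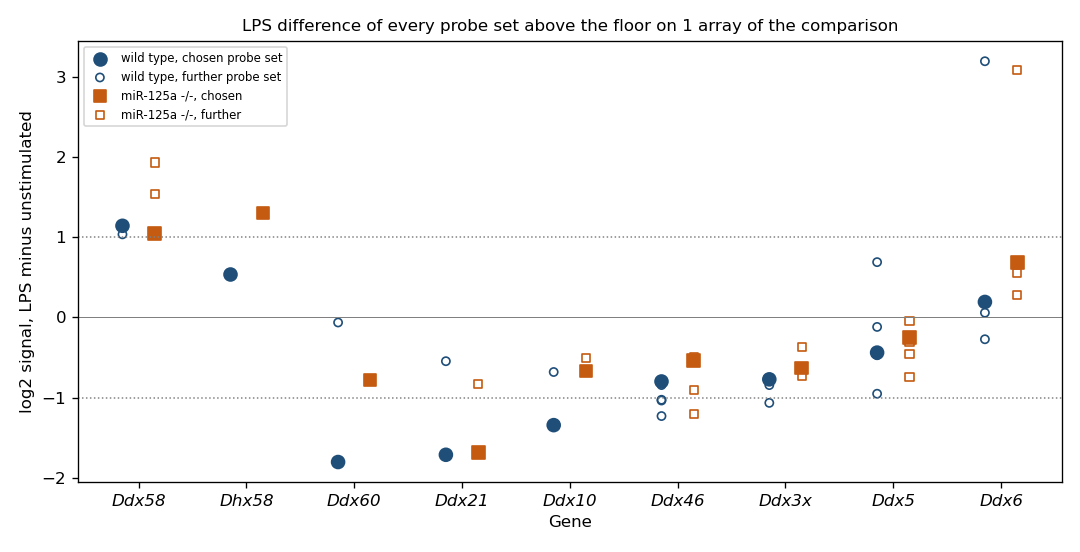
Log2 LPS difference (vertical axis) of every probe set above the floor on at least 1 array of the comparison, for 9 helicase genes, with circles for wild-type and squares for knockout cells and large filled symbols for the probe set chosen for the gene. All probe sets of Ddx58 lie above 0 and all of Ddx46 and Ddx3x below it, whereas Ddx6 has 1 probe set near 3 in both genotypes and the others between -0.27 and 0.68.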

How the data were processed

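Each array was deposited as a column of log2 signals for 45101 probe sets. MAS5 is the tool listed in the submitters' processing notes, and neither its version nor the scaling of the arrays is stated in the labels. Signals of dim probe sets scatter most, which is why a floor was set. Genes were named through the platform annotation (34945 probe sets with 1 symbol; 932 with several were left out, as were control probe sets). Differences were computed with pandas 2.3.3, and the code that calls them was checked on simulated signals. The members, role lists and marker lists were chosen with earlier results of these data known; the promoter elements were chosen after the values were seen. Named genes were the interferon-inducible helicases, members past 2-fold, the highest and lowest of each role list, the brightest member, members at the floor, members whose probe sets disagree and the 3 largest differences of each pathway list. Further members were named after their values were seen. Alternatives were 3 other scalings, 3 other floors, 2 other ways of choosing probe sets and a 1.5-fold threshold.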

Additional observations from a re-analysis of the deposited data

Results flagged for a closer look

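LPS differences of opposite sign in the 2 genotypes were found for 12 of the 47 helicases (25.5%), against 17.4% of all genes measured in both. None of the 12 reached 2-fold in either genotype, and the difference between genotypes was not tested. The knockout response minus the wild-type response was -0.52 for Dhx8, -0.49 for Ddx49, -0.46 for Dhx34, -0.42 for Dhx38, -0.41 for Dhx32, -0.38 for Dhx30, -0.36 for Ddx39b, -0.25 for Ddx47 and -0.10 for Dhx35. It was 0.41 for Ddx23, 0.24 for Dhx57 and 0.13 for Ddx11.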

How the results depend on the processing

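No paired analysis was possible because each group holds 1 array, and for the same reason no replicate could be left out. On the poly-A scale wild-type cells had 0 helicases higher and 16 lower after LPS and knockout cells 0 and 15, and in knockout cells the medians of the interferon-inducible, ribosome assembly and spliceosome helicases were 0.44, -0.85 and -0.76. In the mean over probe sets 2 were higher in wild-type cells, against 6.54% of genes. With the floor at the 75th percentile 2 were lower in wild-type cells, against 7.56% of genes, and 1 was higher in knockout cells, against 6.40%. At 1.5-fold, 2 were higher and 11 lower in wild-type cells, 10 were lower in knockout cells, 3 were higher and 1 lower in unstimulated knockout against wild-type cells, 1 was higher after LPS and 3 differed upward between responses. With no floor, 1 was lower in unstimulated knockout cells, against 9.92% of genes. After LPS 1 was higher and 2 lower in knockout cells with no floor, against 13.5% and 10.4% of genes. Between responses 3 were higher and 2 lower, against 16.4% and 15.3%. The call between responses (Ddx60) gave a count of 0 under quantile normalization, median scaling, the poly-A scale, the 75th percentile floor and the mean over probe sets. The values of the helicases called in any comparison, and of the interferon-inducible ones, were followed under these alternatives. Of these values 279 kept their call or lack of one, 11 gained a call and 13 lost it. At 1.5-fold a gained call is the same value judged at the lower threshold. The sign changed for 16 of the values followed, none of which was 2-fold either way. The widest such change was that of Dhx58 in wild-type cells (0.54, and -0.02 on the poly-A scale).

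Ddx21 was called lower in both genotypes under every alternative run. Ddx58 was called higher under every one except the poly-A scale (0.58 and 0.44). Ddx28 in wild-type cells was short of 2-fold under quantile normalization (-0.93) and median scaling (-0.87), Ddx10 with the 75th percentile floor (-0.94), and Ddx60 with that floor (-0.15) and in the mean over probe sets (-0.98). Dhx58 in knockout cells was short of it on the poly-A scale (0.69) and with that floor (0.80), and its mean over probe sets was under the floor. The cause was not tested.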

Other observations

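Related RNA helicases outside the Ddx and Dhx names were counted in the same way. Of 12 listed, 9 were measured in wild-type and 10 in knockout cells. Over all measured genes 9.69% and 7.99% were lower. In each genotype 1 of the listed helicases was lower, Ythdc2, a helicase that binds methylated RNA. Its signals were 9.52 and 9.47 in unstimulated wild-type and knockout cells and 7.72 and 8.08 after LPS (differences -1.80 and -1.38). The translation initiation helicases Eif4a1 and Eif4a2 had 0.19 and 0.06, and -0.57 and -0.34. Snrnp200, a spliceosome helicase, had -0.18 and -0.17, and Mov10, a helicase of RNA silencing and decay, had a bound of 0.71 in wild-type and -0.36 in knockout cells.

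Ddx3x is X-linked and has a Y-linked partner that was not analysed here. Xist, the RNA of the inactive X chromosome, had signals of 13.68 and 13.87 unstimulated and 12.34 and 13.09 after LPS, and the Y-linked genes Eif2s3y, Kdm5d and Uty were under the floor on every array. The labels do not give the sex of the mice.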
